A study of Mus musculus with 6 samples.

Results

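Autophagy machinery genes encode the proteins that build an autophagosome, load it with cargo and deliver it to the lysosome. They were taken here as every gene whose symbol begins with Atg followed by a digit, together with 21 named genes (Gabarap, Gabarapl1, Gabarapl2, Map1lc3a, Map1lc3b, Becn1, Sqstm1, Optn, Nbr1, Wipi1, Wipi2, Ulk1, Ulk2, Rb1cc1, Pik3c3, Pik3r4, Uvrag, Ambra1, Tfeb, Lamp1 and Lamp2). The choice went by symbol, was made with earlier results of these data known, and gave 40 of 54309 genes. Of these, 39 reached a mean of 1 TPM (transcripts per 1000000, a length-corrected share of a library whose total is fixed) over the 6 libraries and were tested, as were 15108 genes in all. The remaining one, Atg4a-ps, a copy of Atg4a, stood at 0.294 ± 0.119 TPM with AAV-Leptin-GFP and 0.276 ± 0.118 TPM with AAV-GFP (SD, n = 3 each) and was not tested.

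The libraries came from lumbar dorsal root ganglia (L4 to L6), which hold the cell bodies of sensory neurons, of male C57bl/6 mice aged 8 to 10 weeks. In the AAV-Leptin-GFP group (3 libraries) a viral vector carrying leptin and GFP had been given into both sciatic nerves, and in the AAV-GFP group (3 libraries) the vector carried GFP alone. All animals of both groups had received a vector 4 weeks before a dorsal column axotomy, a spinal cord lesion that severs their centrally running axons, and tissue was taken 24 hours after the cut, so uninjured ganglia and ganglia without a vector are not part of the comparison. The cells were dissociated and enriched for neurons on an albumin gradient before RNA isolation, and the comparison asks how delivered leptin changed the neurons' gene expression after the injury. Neither the promoter of the transgene nor the number of animals behind a library is given in the sources used. The p-values therefore cover library-to-library spread alone, which may be technical.

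Macroautophagy starts when the ULK1 kinase complex and the class III PI3-kinase complex mark a membrane with the lipid PI3P, onto which lipid transfer proteins and the scramblase ATG9 deliver membrane. A ubiquitin-like conjugation machinery then attaches ATG8 proteins (the LC3 and GABARAP types) to that membrane, where they bind cargo receptors, and the closed vesicle fuses with a lysosome. Sensory neurons are long-lived and form autophagosomes far out in the axon, from which these travel back toward the cell body.

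Lep was listed at 0.751, 0.547 and 3.56 TPM with AAV-Leptin-GFP and at 0 in every AAV-GFP library. Its mean over the 6 libraries, 0.810 TPM, was under the filter, so it was not tested. The values do not separate transcripts of the vector from those of the animal's own gene. Read depth is unknown, because TPM keep no record of it. Genes at 1 TPM or more numbered 15151 to 15285 with AAV-Leptin-GFP and 14717 to 14851 with AAV-GFP. All 17 sensory neuron markers found in the table were above 0, and their summed level was 27663 to 28281 TPM with AAV-Leptin-GFP and 28898 to 30106 TPM with AAV-GFP. Other cells were present too: 10 satellite glia markers summed to 7429 to 8161 TPM with AAV-Leptin-GFP and 8276 to 9453 TPM with AAV-GFP, 10 Schwann cell markers to 946 to 1031 and 1066 to 1115 TPM, and 12 macrophage markers to 93.8 to 100.5 and 81.5 to 113 TPM. The satellite glia sum was mostly Apoe (5937 to 6504 and 6655 to 7564 TPM). Of the 10 satellite glia markers, 4 had a log2 fold change (AAV-Leptin-GFP minus AAV-GFP) above 0 (median of the list -0.07). The Schwann cell sum was mostly Pmp22 (means of 543 and 585 TPM), and of its 10 markers 2 had a log2 fold change above 0 and 8 below. Egr2, a Schwann cell marker, rose: it had 10.7, 14.4 and 14.1 TPM with AAV-Leptin-GFP against 4.48, 5.32 and 4.34 TPM with AAV-GFP (1.29, limma adjusted p = 0.0155). For 10 endothelial and mural markers the ranges were 63.2 to 81.5 and 65.8 to 100.3 TPM, and for 8 fibroblast markers 141 to 205 and 133 to 173 TPM. AAV-Leptin-GFP replicate 3 stood apart in 5 erythroid markers, which summed to 239, 374 and 1724 TPM with AAV-Leptin-GFP against 170 to 256 TPM with AAV-GFP, and the called members are given below with and without that library. The part of these cells in the results was not tested, and in bulk libraries fewer cells of a type and less RNA per cell cannot be told apart.

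The machinery was expressed throughout, at levels that spanned more than 2 orders of magnitude. The ATG8 genes Gabarapl1 and Map1lc3a averaged 857 and 805 TPM over the 6 libraries and the receptor gene Sqstm1 708 TPM, while Atg9b was lowest among the tested members at 3.22 TPM. Few members passed the test: Atg16l2 and Ulk1 rose, Gabarap fell, and the other 36 did not pass (log2 fold changes of log2(TPM + 1) from -0.32 to 0.35, limma adjusted p from 0.0629 to 0.990). A call needed a limma adjusted p below 0.05. Of the members 5.13% (2) were called higher and 2.56% (1) lower, and of all tested genes 1.54% and 0.0662% (1.61% in either direction). No member call held under every alternative: without the filter on low values the limma adjusted p was 0.0807 for Atg16l2, 0.0920 for Ulk1 and 0.0983 for Gabarap, and with limma's mean-variance trend left out 0.0594, 0.0875 and 0.150. The median log2 fold change of the 39 members was -0.07, beside -0.00016 for all tested genes, and 22 of the members (56.4%) lay below 0, where 50.1% of all tested genes did. Under quantile normalization the medians were -0.04 for the members and -0.04 for all genes, with mitochondrially encoded genes removed -0.04 and 0.03, and without AAV-Leptin-GFP replicate 3 -0.03 and 0.02.

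**Figure D1:**
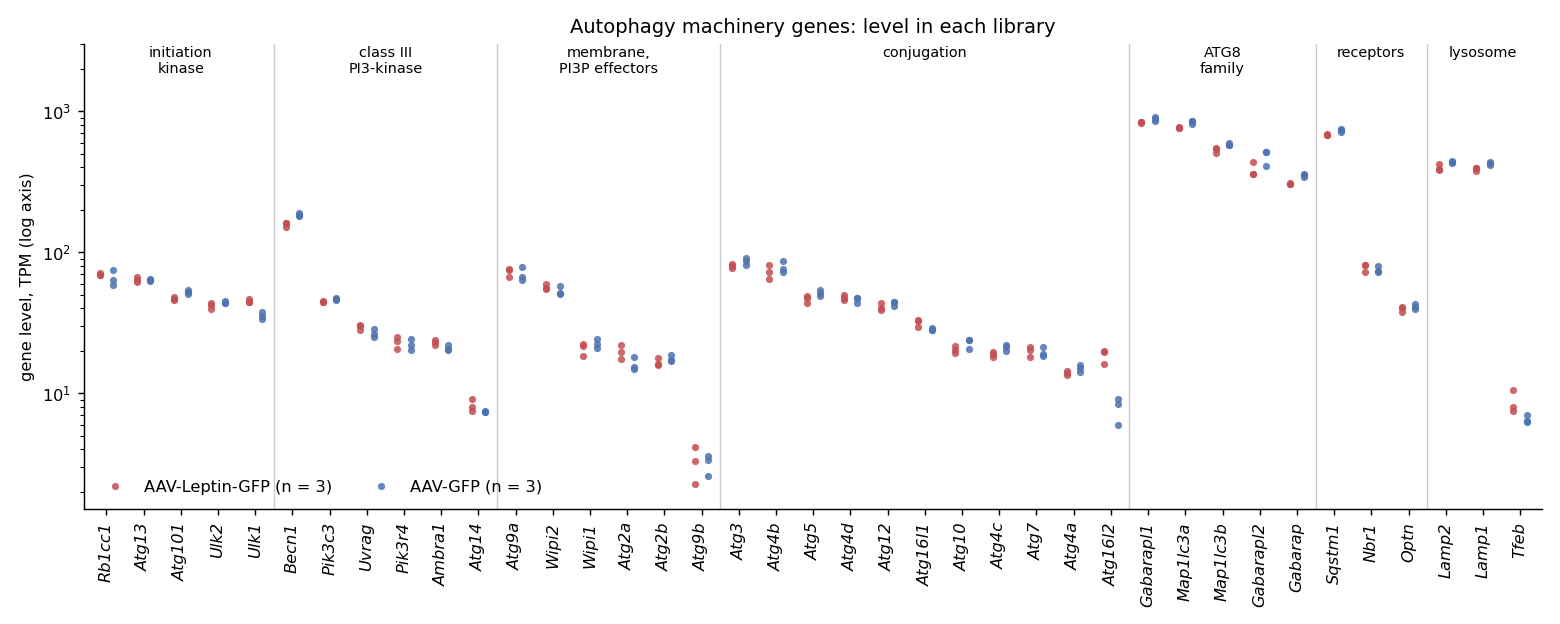
Level of each of the 39 tested members in every library, in TPM on a log axis, grouped by role and ordered by mean level within a role, with AAV-Leptin-GFP libraries (red, n = 3) left of AAV-GFP libraries (blue, n = 3). The ATG8 genes, Sqstm1, Lamp1 and Lamp2 lie above 300 TPM and Atg9b lies near 3 TPM, and the groups separate most widely for Atg16l2.

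Groups that did not overlap were more frequent on the low side. All 3 AAV-Leptin-GFP values lay below all 3 AAV-GFP values in 12 members (30.8%), where 11.9% of all tested genes did so, and above them in 6 (15.4%, against 13.3% of all tested genes). At an unadjusted limma p under 0.05, 10 members were lower (25.6%, against 8.19% of all genes) and 5 higher (12.8%, against 11.3%). The count of lower members was 6 under quantile normalization and 6 without AAV-GFP replicate 2. The count of higher ones was 2 with protein-coding transcripts only, 2 without AAV-Leptin-GFP replicate 1, 2 without AAV-GFP replicate 2 and 3 when AAV-Leptin-GFP replicate 2 was left out. The surplus on the low side lay in the members with the highest levels. All 9 members with a mean of at least 100 TPM were below 0 (Gabarapl1 lay at 0.020 under quantile normalization), but so were 77.9% of the 1962 tested genes at that level, with a median of -0.08 beside -0.13 for the 9 members. In that class the groups did not overlap on the low side for 8 of the 9 members and for 36.6% of all genes. From 300 TPM on, the same held for 7 of 8 members and for 48.6% of 555 genes, with medians of -0.13 and -0.10. These level classes were chosen after the values were seen.

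**Figure D2:**
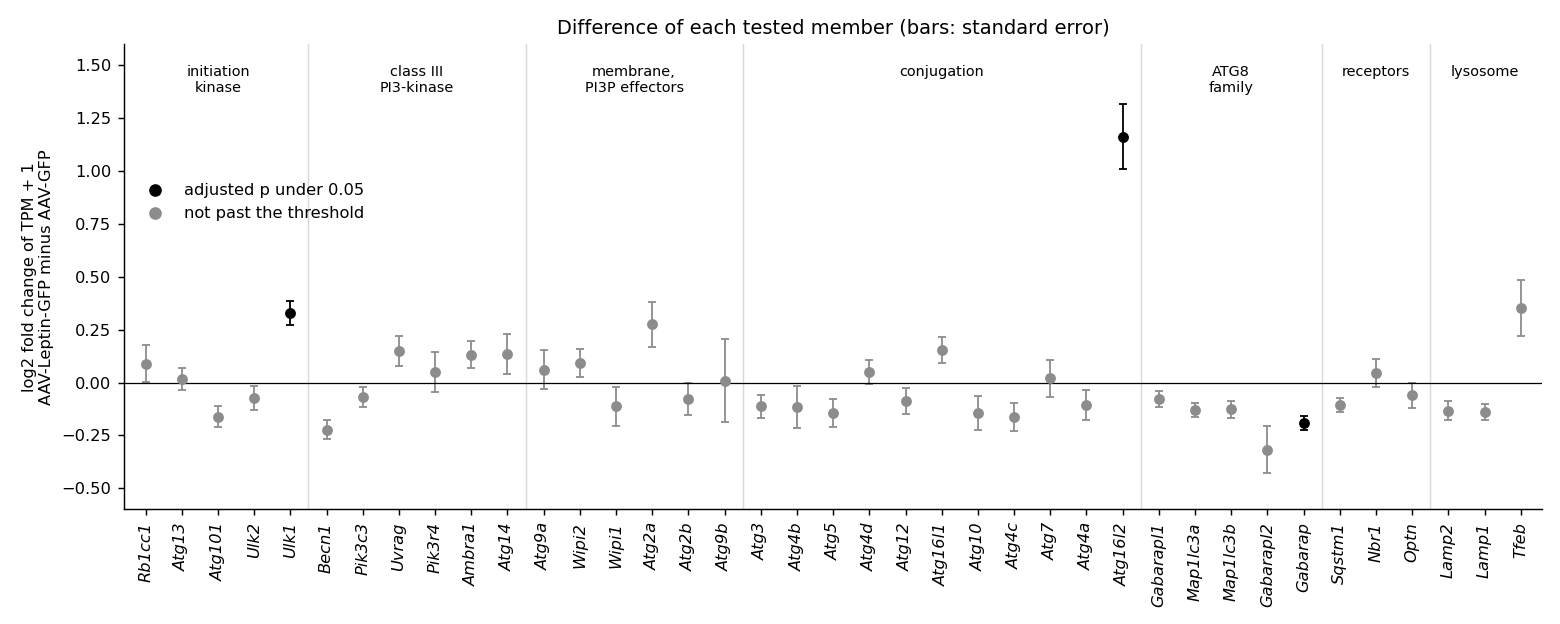
Log2 fold change of TPM + 1, AAV-Leptin-GFP minus AAV-GFP, for each tested member with its standard error, grouped by role. Black points (Ulk1, Atg16l2 and Gabarap) passed a limma adjusted p of 0.05 over all tested genes and grey points did not, and all 5 ATG8 genes lie below 0 (4 of 5 under quantile normalization, where Gabarapl1 is at 0.020).

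In the initiation kinase complex, which receives nutrient and energy signals and switches autophagy on, Ulk1 rose and the 4 other subunit genes did not pass. Ulk1, the kinase itself (ENSMUSG00000029512, chromosome 5, 110784488 to 110810097 on GRCm38), had 44.2, 46.4 and 44.4 TPM with AAV-Leptin-GFP, against 37.5, 33.9 and 35.5 TPM with AAV-GFP. The groups did not overlap, and the log2 fold change was 0.33 (SE 0.06, limma adjusted p = 0.0462). Without AAV-Leptin-GFP replicate 3 it was 0.34 (limma adjusted p = 0.101), and with protein-coding transcripts only it was 0.15 (limma adjusted p = 0.184), so the call ended in both cases. It also ended without AAV-Leptin-GFP replicate 1 or 2 (0.34 and 0.31, limma adjusted p = 0.132 and 0.177) and without AAV-GFP replicate 2 or 3 (0.29 and 0.33, limma adjusted p = 0.177 and 0.178).

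Ulk2, the paralogous kinase, did not pass and had 42.5, 43.7 and 39.4 TPM with AAV-Leptin-GFP and 43.8, 43.4 and 44.8 TPM with AAV-GFP (-0.07, limma adjusted p = 0.539). Ulk1 was the more abundant of the pair in every AAV-Leptin-GFP library, at 1.08 ± 0.0444 times the Ulk2 level, and the less abundant in every AAV-GFP library, at 0.810 ± 0.0411 times (SD, n = 3 each). That order held for all transcript classes together: in protein-coding transcripts alone Ulk1 lay below Ulk2 in every library of both groups, at 38.0 to 39.2 TPM against 39.4 to 43.0 TPM for Ulk2 with AAV-Leptin-GFP, and at 33.7 to 35.4 against 43.4 to 44.4 TPM with AAV-GFP. The most abundant subunit was the scaffold Rb1cc1 (FIP200), with 71.4, 68.6 and 69.2 TPM under AAV-Leptin-GFP and 63.7, 58.7 and 75.0 TPM under AAV-GFP, groups that overlapped (0.09, limma adjusted p = 0.623). Atg101, which steadies the complex, was lower in each AAV-Leptin-GFP library (45.6 to 48.5 TPM) than in any AAV-GFP library (51.0 to 54.2 TPM), at -0.16 (limma adjusted p = 0.153). Atg13, the adaptor between kinase and scaffold, was at 0.02 and its groups overlapped.

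The promoters of the 2 members that rose are shown because both hold GC boxes (GGGCGG, the motif of Sp-type factors, which reads CCGCCC on the other strand). For Ulk1 the 250 bases before the RefSeq start on the minus strand, chr5:110810082-110810331 (GRCm38.p6), hold 5 of them, in capitals, and have a GC content of 67.2%.
Ulk1: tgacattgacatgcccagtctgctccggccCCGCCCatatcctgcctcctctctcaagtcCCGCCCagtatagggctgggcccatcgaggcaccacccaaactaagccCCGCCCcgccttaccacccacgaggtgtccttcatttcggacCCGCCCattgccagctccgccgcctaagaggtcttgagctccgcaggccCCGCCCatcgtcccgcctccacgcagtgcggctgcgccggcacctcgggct
A GC box occurs in the same 250-base window of 32.7% of all 32851 RefSeq promoters and in that of 21 of the 33 members found in the table (63.6%). These 21 include Gabarapl2, Map1lc3b and Sqstm1, which lay below 0. The window of Gabarap, the called member that fell, holds 0 GC boxes. In the window of Atg16l2 there are 2, and the stretch at chr7:101302089-101302118 (minus strand, GRCm38.p6, the last bases before the RefSeq start and inside the longer gene of GENCODE M21) carries one of them directly followed by TGACGTCA, the cAMP response element, with both in capitals.
Atg16l2: ctgctgCCGCCCTGACGTCAtggagtcccc
That element occurs in 1.55% of all promoter windows and in no other member's window. The core of the element that TFEB binds, CACGTG, is in neither window, and it is found in those of Atg3, Atg5, Atg7 and Lamp1 (4 of 33 members, against 6.02% of all windows). For each motif both strands were searched, all 3 were chosen after the values were seen, and a match of letters shows neither binding nor a cause.

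The class III PI3-kinase complex, which makes the lipid PI3P, had no member past the test. Becn1, its scaffold and the point where Bcl-2 proteins hold it back, was the most abundant and came closest: 152, 162 and 160 TPM with AAV-Leptin-GFP against 183, 180 and 191 TPM with AAV-GFP (-0.22, SE 0.05, limma adjusted p = 0.0629). Its groups did not overlap, and its fold change ranged from -0.37 to -0.18 over 15 alternatives, none of which called it. Pik3c3, the lipid kinase VPS34, was also lower in each AAV-Leptin-GFP library, by a small margin (44.1 to 45.0 TPM against 46.2 to 47.3 TPM; -0.07, limma adjusted p = 0.465).

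The other subunits and partners lay above 0 without passing. Atg14, which sends it to forming autophagosomes, had 8.04, 9.08 and 7.55 TPM with AAV-Leptin-GFP and 7.36, 7.33 and 7.47 TPM with AAV-GFP (0.13, limma adjusted p = 0.479). It was at 0.023 under quantile normalization, 0.063 with protein-coding transcripts only and 0.069 without AAV-Leptin-GFP replicate 2. Uvrag, which directs it to endosomes in its place, was at 0.15 (limma adjusted p = 0.294) with overlapping groups, and at 0.015 with protein-coding transcripts only. Ambra1, a regulator that binds Becn1, was at 0.13 with all AAV-Leptin-GFP libraries (22.0 to 23.8 TPM) above all AAV-GFP libraries (20.3 to 21.8 TPM; limma adjusted p = 0.308). Pik3r4, the VPS15 regulatory subunit, was at 0.05 with overlapping groups (limma adjusted p = 0.814), at -0.061 with protein-coding transcripts only, and at -0.0037 and -0.0062 without AAV-Leptin-GFP replicate 1 or AAV-GFP replicate 2.

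None of the 6 genes for membrane supply and PI3P effectors passed. Atg2a, a lipid transfer protein, had the smallest p: 19.5, 22.1 and 17.6 TPM with AAV-Leptin-GFP against 17.98, 14.9 and 15.5 TPM with AAV-GFP (0.27, SE 0.11, limma adjusted p = 0.217). The groups overlapped through AAV-GFP replicate 1. Its paralog Atg2b was at -0.08 (limma adjusted p = 0.621). Atg9a, the scramblase of the vesicles that seed the membrane, was the most abundant of these genes, with 74.4, 76.3 and 66.8 TPM in AAV-Leptin-GFP libraries and 78.9, 66.9 and 63.1 TPM in AAV-GFP libraries (0.06, limma adjusted p = 0.771). Its level is uncertain, because 32% of the 31-base words of its transcripts also occur in other genes. Atg9b, its tissue-restricted relative, had 3.31, 4.18 and 2.28 TPM with AAV-Leptin-GFP and 3.34, 3.62 and 2.59 TPM with AAV-GFP. Of the PI3P-binding propeller proteins, Wipi2, which recruits the conjugation machinery, was at 0.09 and Wipi1 at -0.11 (limma adjusted p = 0.505 and 0.555).

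Among the 11 conjugation genes Atg16l2 rose, and it was the member with the widest difference of all 39. Atg16l2 (ENSMUSG00000047767, chromosome 7, 101263034 to 101302251) had 19.9, 19.7 and 16.2 TPM with AAV-Leptin-GFP, against 9.12, 5.99 and 8.39 TPM with AAV-GFP. The lowest AAV-Leptin-GFP library thus lay well above the highest AAV-GFP library, and the ratio of the means was 2.37 (log2 fold change 1.16, SE 0.15, limma adjusted p = 0.0238). Without AAV-Leptin-GFP replicate 3 the value was 1.25 (limma adjusted p = 0.0694), and with protein-coding transcripts only 0.67 (limma adjusted p = 0.144). The call also ended without AAV-Leptin-GFP replicate 1 or 2 (1.11 and 1.12, limma adjusted p = 0.121 and 0.162) and without AAV-GFP replicate 2 or 3 (1.00 and 1.21, limma adjusted p = 0.0861 and 0.130). Atg16l2 encodes a relative of ATG16L1 that also binds the ATG5-ATG12 conjugate, and it overlaps the gene Fchsd2 on the opposite strand. The library kit keeps strand, per the labels, but how strand was handled in quantification is not given.

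Atg16l1, the subunit that places the lipid conjugation at the membrane, had 33.1, 32.6 and 29.6 TPM with AAV-Leptin-GFP and 28.9, 28.3 and 28.0 TPM with AAV-GFP. The groups did not overlap, without passing (0.15, limma adjusted p = 0.235), and the value was -0.05 with protein-coding transcripts only. Atg16l2 stood at 0.584 ± 0.0340 of the Atg16l1 level with AAV-Leptin-GFP and at 0.276 ± 0.0560 of it with AAV-GFP (SD, n = 3 each).

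The enzymes of the 2 ubiquitin-like pathways did not pass. Atg3, the E2-like enzyme that hands ATG8 proteins to the lipid, was the most abundant, with 81.9, 79.9 and 77.9 TPM in AAV-Leptin-GFP libraries and 81.8, 86.2 and 91.5 TPM in AAV-GFP libraries (-0.11, limma adjusted p = 0.316). Atg5, the acceptor of the ubiquitin-like Atg12, was lower in every AAV-Leptin-GFP library (43.6 to 48.7 TPM) than in any AAV-GFP library (48.8 to 54.3 TPM), at -0.14 (limma adjusted p = 0.282). Atg12 itself was at -0.09, the E1-like Atg7 at 0.02 and Atg10, the E2-like enzyme for Atg12, at -0.15, all with overlapping groups.

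The Atg4 genes encode the proteases that expose the C-terminal glycine of ATG8 proteins before conjugation and release them afterwards. Their order of level was the same in both group means: Atg4b first (72.7 ± 8.06 TPM with AAV-Leptin-GFP and 78.8 ± 7.57 TPM with AAV-GFP), then Atg4d, Atg4c and Atg4a (SD, n = 3 each). Atg4c had the smallest p, with 18.03 to 19.5 TPM in AAV-Leptin-GFP libraries against 20.1 to 22.0 TPM in AAV-GFP libraries and no overlap (-0.16, limma adjusted p = 0.240). Atg4a is uncertain, because 60.8% of the 31-base words of its transcripts also occur in Atg4a-ps.

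The 5 ATG8 genes encode the ubiquitin-like proteins that are attached to the autophagosome membrane. The last 30 coding bases of the most abundant protein-coding transcript of 4 of them (GENCODE M21, sense strand, stop codon left out) show a shared feature, the codon in capitals for the glycine at which Atg4 proteases cut.
Gabarap: gcctacagtgatgaaagcgtctatGGTctg
Gabarapl1: gcctacagtgatgaaagtgtctatGGAaaa
Gabarapl2: gcctacagcggagagaacacttttGGCttc
Map1lc3a: gtctacgcctcccaagaaaccttcGGCttc
A single codon follows it in each of the 4. The end of Map1lc3b was left out, so this does not speak for all 5 genes. Over the whole coding sequence, Gabarap and Gabarapl1 share 74.6% of bases and Map1lc3a and Map1lc3b 74.7%, while pairs across the 2 types share 50.5% to 54.9%. No 31-base word of Gabarap, Gabarapl1 or Map1lc3a transcripts occurs in another gene's transcripts, whereas 15.2% of those of Gabarapl2 and 7.77% of those of Map1lc3b do.

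Gabarap fell past the test, and all 5 ATG8 genes had lower mean TPM with AAV-Leptin-GFP, by small amounts (4 of 5 under quantile normalization). Gabarap (ENSMUSG00000018567, chromosome 11, 69991143 to 69994951) had 307, 308 and 307 TPM with AAV-Leptin-GFP, against 353, 357 and 344 TPM with AAV-GFP. The 3 AAV-Leptin-GFP values were nearly equal and all lay below the AAV-GFP values (log2 fold change -0.19, SE 0.03, limma adjusted p = 0.0462). The call ended without AAV-Leptin-GFP replicate 3 (-0.19, limma adjusted p = 0.0955), under quantile normalization (-0.11, limma adjusted p = 0.165) and after removal of mitochondrially encoded genes (-0.16, limma adjusted p = 0.0600), whose share of all TPM was 8.08% ± 0.949 with AAV-Leptin-GFP and 5.88% ± 0.234 with AAV-GFP (SD, n = 3 each). It ended as well without AAV-Leptin-GFP replicate 1 or 2 (-0.19 each, limma adjusted p = 0.132 and 0.169), without AAV-GFP replicate 1, 2 or 3 (-0.19, -0.18 and -0.20, limma adjusted p = 0.0738, 0.190 and 0.153) and with protein-coding transcripts only (-0.20, limma adjusted p = 0.0626).

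Gabarapl1, the most abundant member of the machinery, had 834, 823 and 843 TPM with AAV-Leptin-GFP and 850, 879 and 913 TPM with AAV-GFP (-0.08, limma adjusted p = 0.293). Its groups lay next to each other without overlap, and under quantile normalization its value was 0.020. Gabarapl2, also called GATE-16, had 437, 358 and 358 TPM with AAV-Leptin-GFP against 514, 516 and 411 TPM with AAV-GFP (-0.32, SE 0.11, limma adjusted p = 0.182). AAV-Leptin-GFP replicate 1 and AAV-GFP replicate 3 overlapped here, and the lowest log2 value among the 39 members came with the widest spread of this family. The LC3-type genes were lower in every AAV-Leptin-GFP library: Map1lc3a at 764 to 774 TPM with AAV-Leptin-GFP against 812 to 860 TPM with AAV-GFP, and Map1lc3b at 508 to 550 TPM against 577 to 591 TPM (-0.13 each, limma adjusted p = 0.106 and 0.153). Under quantile normalization these were at -0.020 and -0.044, and with protein-coding transcripts only Gabarapl2 was at -0.18 (limma adjusted p = 0.122).

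Summed over the family, the level was 2895, 2807 and 2782 TPM with AAV-Leptin-GFP and 3105, 3194 and 3109 TPM with AAV-GFP. The make-up of that pool differed little: Gabarapl1 gave 29.5% ± 0.772 of it with AAV-Leptin-GFP and 28.1% ± 1.11 with AAV-GFP, and Gabarap 10.9% ± 0.239 and 11.2% ± 0.145 (SD, n = 3 each). The family's median log2 fold change was -0.13 on the TPM scale as deposited, -0.10 without mitochondrially encoded genes and -0.04 under quantile normalization, where 4 of the 5 genes stayed below 0. All tested genes had medians of -0.00016, 0.03 and -0.04 on these 3 scales, so the family lay beside all genes under quantile normalization. As background, 555 tested genes averaged 300 TPM or more, a level that all 5 exceed; they had a median of -0.10, and 84.9% of them lay below 0.

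**Figure D3:**
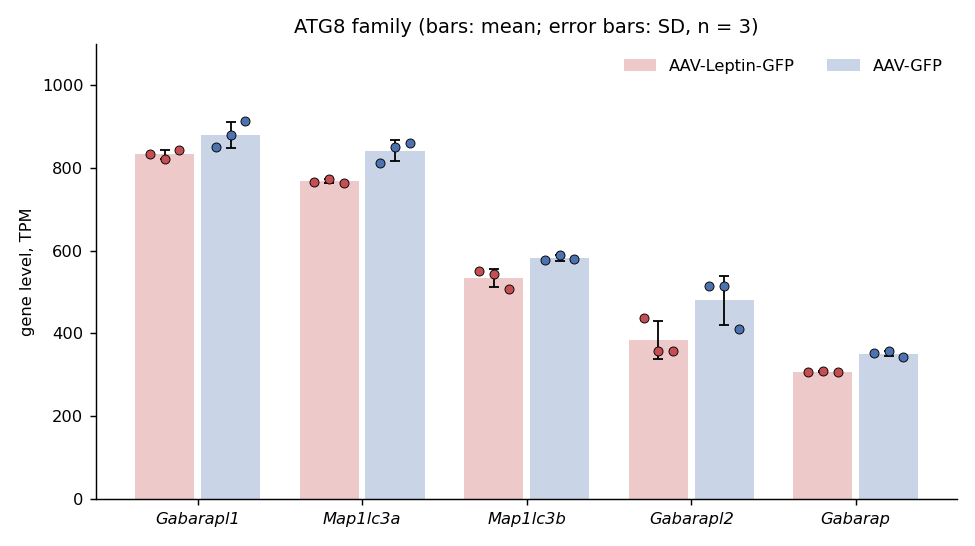
Level of the 5 ATG8 genes in TPM, with AAV-Leptin-GFP (red) left of AAV-GFP (blue) for each gene; bars are means, error bars SD and points single libraries (n = 3 each). Every AAV-Leptin-GFP bar is the lower of its pair in TPM as deposited (4 of 5 under quantile normalization), and the points overlap between groups for Gabarapl2 alone.

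None of the cargo receptor genes passed. Sqstm1 (p62), which links ubiquitinated cargo to ATG8 proteins and is itself degraded with it, was the most abundant and had the smallest p: 691, 679 and 674 TPM with AAV-Leptin-GFP against 744, 740 and 718 TPM with AAV-GFP (-0.11, SE 0.03, limma adjusted p = 0.139). Its groups did not overlap, and under quantile normalization the value was -0.019 (limma adjusted p = 0.797). Nbr1, a p62-like receptor, had 81.1, 81.3 and 72.1 TPM with AAV-Leptin-GFP and 80.5, 72.5 and 74.0 TPM with AAV-GFP (0.05, limma adjusted p = 0.764), and Optn, a receptor for damaged mitochondria, had 37.4 to 40.9 and 39.8 to 42.9 TPM (-0.06, limma adjusted p = 0.625).

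At the lysosome, the membrane glycoprotein genes and the regulator stood on opposite sides of 0 and none passed. Lamp1 had 394, 396 and 376 TPM with AAV-Leptin-GFP against 435, 419 and 430 TPM with AAV-GFP (-0.14, limma adjusted p = 0.109). Lamp2, whose isoforms serve fusion and chaperone-mediated autophagy, had 421, 390 and 384 TPM with AAV-Leptin-GFP against 429, 437 and 443 TPM with AAV-GFP (-0.13, limma adjusted p = 0.165). Both were without overlap, and under quantile normalization they were at -0.054 and -0.046. Tfeb, the transcription factor for lysosome and autophagy genes, had 10.6, 7.51 and 7.96 TPM with AAV-Leptin-GFP against 6.99, 6.29 and 6.33 TPM with AAV-GFP (0.35, SE 0.13, limma adjusted p = 0.210), again without overlap, and its highest value was that of AAV-Leptin-GFP replicate 1. Without that library the value was 0.21 (limma adjusted p = 0.341), and with protein-coding transcripts only, which held 0.654 of the 2.15 TPM between the group means, it was 0.12 (limma adjusted p = 0.549).

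Separating the members' transcripts by class showed where the increases lay. Retained-intron transcripts, which keep an intron and are not translated into the full protein, held 7.83 of the 10.8 TPM by which the group means of Atg16l2 differed and 4.98 of the 9.37 TPM for Ulk1. In Atg16l2 they summed to 13.0, 11.9 and 9.93 TPM with AAV-Leptin-GFP against 3.80, 2.19 and 5.32 TPM with AAV-GFP, while the protein-coding transcripts summed to 4.51, 6.13 and 3.55 TPM against 3.41, 2.01 and 2.34 TPM. Both sums were without overlap between the groups. In the group means, retained-intron transcripts made up 62.4% of the gene's level with AAV-Leptin-GFP and 48.1% with AAV-GFP. By library these shares overlapped, with 5.32 of 8.39 TPM in AAV-GFP replicate 3 beside 11.9 of 19.7 TPM in AAV-Leptin-GFP replicate 2. In Ulk1 the retained-intron sum was 4.42, 7.90 and 5.32 TPM with AAV-Leptin-GFP and 2.003, 0.159 and 0.518 TPM with AAV-GFP. Its protein-coding sum was 39.2, 38.0 and 38.7 TPM with AAV-Leptin-GFP against 35.4, 33.7 and 35.0 TPM with AAV-GFP, also without overlap. Gabarap's difference lay in its protein-coding transcripts, at 299, 302 and 296 TPM with AAV-Leptin-GFP against 344, 352 and 335 TPM with AAV-GFP.

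The same split ran through the other members, and through retained-intron transcripts at large. Over all 4245 tested ones, 84.1% lay above 0, and 51.3% had AAV-Leptin-GFP above without overlap. These shares are by transcript, for transcripts with a mean of at least 1 TPM. The counts that follow are by member, without that filter. They include low sums, such as Atg3 at 0.181 to 0.461 TPM with AAV-Leptin-GFP and 0 with AAV-GFP. Of 26 members with retained-intron transcripts above 0, that class had the higher mean with AAV-Leptin-GFP in 24, with no overlap between the groups in 15. In Sqstm1 it summed to 13.5, 13.3 and 9.98 TPM with AAV-Leptin-GFP against 3.10, 1.69 and 3.94 TPM with AAV-GFP, while the protein-coding sum was 664 to 677 TPM against 714 to 741 TPM. In Map1lc3b it was 5.21 to 6.23 TPM against 0.744 to 1.94 TPM. The exceptions were Gabarapl2, with 173, 109 and 105 TPM with AAV-Leptin-GFP against 223, 211 and 136 TPM with AAV-GFP, and Becn1, at 51.3 ± 4.68 and 51.5 ± 8.32 TPM (SD, n = 3 each). Over all members, retained-intron transcripts took 6.50%, 5.10% and 4.81% of the TPM with AAV-Leptin-GFP and 5.94%, 5.17% and 4.17% with AAV-GFP, groups that overlapped (means 5.47% ± 0.906 and 5.09% ± 0.886, SD, n = 3 each). Without Gabarapl2 and Becn1, retained-intron transcripts took 2.76%, 2.49% and 2.22% of the members' TPM with AAV-Leptin-GFP and 1.43%, 1.11% and 1.14% with AAV-GFP. In the whole libraries the share was 3.60%, 3.75% and 3.24% with AAV-Leptin-GFP and 2.50%, 2.10% and 2.27% with AAV-GFP, so the libraries as a whole differed in the same direction. In some members the larger part of the level lies outside protein-coding transcripts in both groups: retained-intron transcripts held 94.8% of Atg4d with AAV-Leptin-GFP and 95.3% with AAV-GFP, and transcripts marked for nonsense-mediated decay held 51.3% and 53.3% of Becn1. The omission of the 2 genes was chosen after the values were seen.

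Tested one by one, no transcript of the members passed. Of 281 listed, 113 reached a mean of 1 TPM, and over all 33615 tested transcripts limma called 0.107% higher and 0.0238% lower (0.131% in either direction). At an unadjusted limma p under 0.05, 17 of the members' transcripts were higher (12.3% of all transcripts were) and 14 lower (6.01% of all). The groups did not overlap in 20 with AAV-Leptin-GFP above (15% of all) and in 22 with it below (9.59% of all), and 61 lay below 0 (48.6% of all). The closest was the retained-intron transcript of Map1lc3b of 4138 nt, with 6.19, 6.23 and 5.21 TPM in AAV-Leptin-GFP libraries against 1.94, 1.08 and 0.744 TPM in AAV-GFP libraries (1.64, SE 0.23, limma adjusted p = 0.0547). Among 23 tested retained-intron transcripts, 20 lay above 0 with a median of 1.06, and the groups did not overlap with AAV-Leptin-GFP above in 13. Over all 4245 tested retained-intron transcripts, 84.1% lay above 0, the median was 0.88, and 51.3% were without overlap in that direction. The 74 protein-coding ones had a median of -0.07 (-0.03 over all 22931 protein-coding transcripts). For Ulk1 the 5213 nt protein-coding transcript, 85.7% of the gene's level, was at 0.16 (limma adjusted p = 0.190), and for Gabarap the 1351 nt one, 69.0% of the level, was at -0.19 (limma adjusted p = 0.102). No single Atg16l2 transcript held more than 18.5% of its gene's level, and the 4 that held at least 10% were a protein-coding one at 0.66 and retained-intron ones at 0.61, 1.37 and 0.85.

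**Figure D4:**
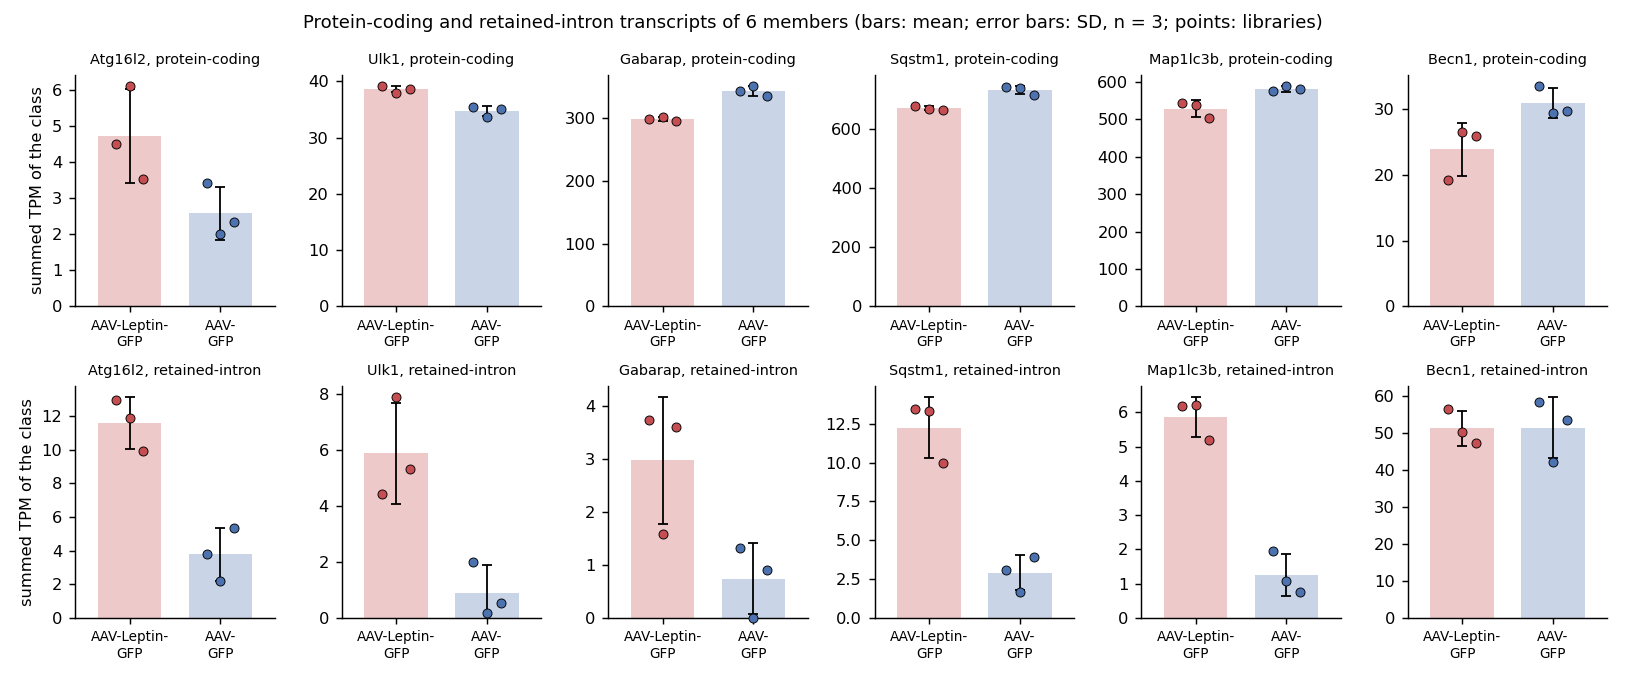
Summed TPM of protein-coding transcripts (upper row) and retained-intron transcripts (lower row) of Atg16l2, Ulk1, Gabarap, Sqstm1, Map1lc3b and Becn1, with AAV-Leptin-GFP (red) left of AAV-GFP (blue); bars are means, error bars SD and points libraries (n = 3 each), on separate axes that start at 0. The retained-intron sums are higher in every AAV-Leptin-GFP library for 5 of the 6 genes, the exception being Becn1, while protein-coding sums are higher for Atg16l2 and Ulk1 and lower for the other genes.

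The direction of a member went with its level, as it did across all genes. The 3 tested members with a mean of 1 to 10 TPM (Atg14, Tfeb and Atg9b) lay above 0, where 37.5% of 5724 genes of that level lay below 0. Atg9b did so by 0.0085 only (SE 0.20), and its sign turned in 4 of its 13 alternatives. At 10 to 100 TPM, 13 of 27 members were below 0, beside 52.4% of 7422 genes. From 100 TPM on, all 9 were below 0, with the exception of Gabarapl1 under quantile normalization. Atg16l2 and Ulk1, at 13.2 and 40.3 TPM, and Gabarap at 329 TPM were called in level classes whose genes had medians of -0.0079, for the first 2, and -0.08.

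**Figure D5:**
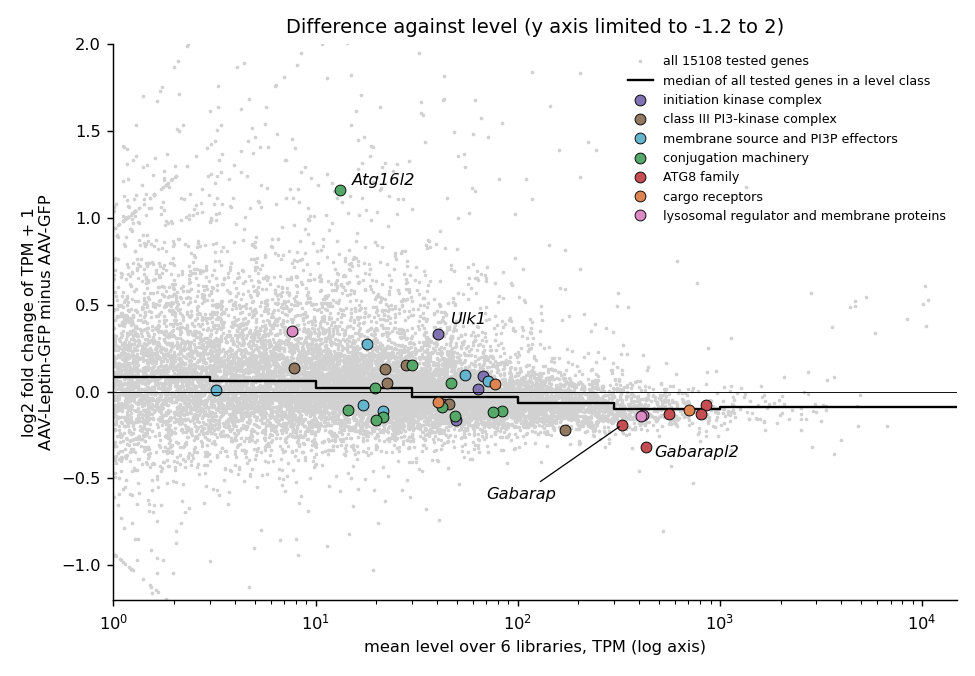
Log2 fold change (AAV-Leptin-GFP minus AAV-GFP) against mean level over the 6 libraries in TPM on a log axis, for all 15108 tested genes (grey) and the 39 tested members, coloured by role. The black step line is the median of all genes in a level class; it lies above 0 at the left and below 0 at the right, and most members lie near it while Atg16l2 lies far above.

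Genes of the wider pathway, from lists of other autophagy and lysosome genes, passed the test about as often as genes at large. Of 127 tested genes outside the members, 2 rose by limma (1.57%, against 1.54% of all tested genes) and 0 fell (against 0.0662%). At an unadjusted limma p under 0.05, 5 were higher (3.94%, against 11.3%) and 28 lower (22%, against 8.19%). The share lower at that threshold was 7.36% of all tested genes averaging 10 to 100 TPM and 29.8% of those from 100 TPM on. For the 127 genes the median was -0.05, and 67.7% lay below 0, against 50.1% of all tested genes. Zkscan3, a zinc finger protein described as a repressor of autophagy genes, rose: it had 15.7, 15.1 and 14.1 TPM with AAV-Leptin-GFP against 10.4, 9.64 and 10.5 TPM with AAV-GFP (0.51, SE 0.08, limma adjusted p = 0.0306). It was the 1 of 13 tested genes of the TFEB family and partner list to pass. The lysosomal protease gene Ctsf rose as the 1 of 25 lysosomal hydrolase genes, with 65.9, 71.2 and 64.1 TPM with AAV-Leptin-GFP against 54.7, 52.1 and 50.8 TPM with AAV-GFP (0.35, SE 0.06, limma adjusted p = 0.0405). For Zkscan3 and Ctsf the main fit alone is given, so whether their calls hold under the alternatives is not shown.

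The other lists had no gene past the test, where 1.61% of all tested genes passed. Their counts below 0 stand beside 50.1% of all tested genes, and beside 77.9% of those with a mean of at least 100 TPM. For lysosomal membrane proteins and proton pump subunits (0 of 26, 20 below 0) the median was -0.11, and the pump subunit Atp6v1g1 came closest, at 265, 237 and 241 TPM with AAV-Leptin-GFP against 289, 294 and 293 TPM with AAV-GFP (-0.24, limma adjusted p = 0.0630). Other cargo receptors and adaptors (0 of 19, 18 below 0) had a median of -0.08, with the ER-phagy receptor Sec62 at -0.13 (limma adjusted p = 0.125). Fusion genes (0 of 16, 12 below 0) had a median of -0.05, with the late endosome GTPase Rab7 at -0.10 (limma adjusted p = 0.192). Mitophagy genes (0 of 9) and other early autophagosome genes (0 of 19) had medians of 0.05 and -0.0081, with the mitochondrial kinase Pink1 at -0.12 (limma adjusted p = 0.197) and Tecpr1, a tether of autophagosome and lysosome, at 0.27 (limma adjusted p = 0.0771).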

How the data were processed

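RNA-seq of 6 libraries was analysed, 3 AAV-Leptin-GFP and 3 AAV-GFP, grouped by the treatment label. The authors deposited TPM per Ensembl transcript, each library summing to 1000000. The tools listed per the submitters' processing notes, without roles, are Salmon 1.6.0, Trim Galore 0.6.6, DESeq2 1.34.0 and FastQC 0.11.9, beside the builds mm10 and GRCm38. No annotation release is given in the sources used here. GENCODE M21 (GRCm38) holds 97.4% of the 140789 identifiers (275 of the members' 281), and classes, lengths, coding sequences and gene coordinates were looked up there by identifier. Promoters are from RefSeq (GRCm38.p6, 33 members matched by symbol).

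TPM were summed by gene identifier. Genes averaging 1 TPM or more were compared on the log2(TPM + 1) scale by limma (version 3.58.1, R 4.3.3; mean-variance trend, no covariates, two-sided, Benjamini-Hochberg over all tested genes, called under 0.05). This scale understates the change of low genes. Transcripts were tested likewise. Python 3.11.15, Biopython 1.88 and matplotlib 3.10.9 were used for sequences and plots. The members, roles and lists were chosen with earlier results of these data known. Named with every library are called members and, per role, those with the smallest p and the highest level, and other members were added. From other lists the called genes or the gene with the smallest p are named. Alternatives were other pseudocounts (0.1 and 0.5), filters, scalings, transcript sets and left-out libraries.

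Replicate numbers are shared by the groups and were not used to pair the libraries in the main fit. Shared 31-base words were counted between the deposited transcripts found in GENCODE M21.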

Additional observations from a re-analysis of the deposited data

How the results depend on the processing

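Without a filter on low values, 4 genes were called higher and 0 lower, and 0 members in either direction, over 29036 genes tested. A filter of 5 TPM called 27 genes lower and the same 3 members. Quantile normalization left 0 members lower, removal of mitochondrially encoded genes 3 genes and 0 members lower, and protein-coding transcripts alone gave 53 genes higher, 4 lower and 0 members in either direction. Limma without its trend gave 35 and 0 genes and 0 and 0 members. With the replicate number as a block, 74 genes were higher, 0 lower and 0 members called. Deviations of same-numbered libraries correlated at 0.0341, -0.0699 and -0.0241. These values show no shared deviation but cannot decide whether the libraries were paired. For these settings the cause was not tested.

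Leaving out 1 library gave 3 to 409 genes higher, 0 to 11 lower, 0 to 2 members higher, 0 to 0 members lower (0 in each of the 6 fits) and 0 to 3 members' transcripts higher. Atg16l2 and Ulk1 kept their calls without AAV-GFP replicate 1 and lost them without any other library, and Gabarap lost its call without any of the 6. Each of these 3 genes kept its sign in all 15 alternatives, with an unadjusted limma p below 0.05 in each. Atg16l2 and Ulk1 were called in 6 of the 15 (limma adjusted p from 0.0150 to 0.162 and from 0.0297 to 0.184), and Gabarap in 3 (from 0.0398 to 0.190).

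Signs turned in members that were not called. Under quantile normalization Gabarapl1 was at 0.020, Atg7 at -0.036 and Atg9b at -0.13. With protein-coding transcripts only, Nbr1 was at -0.12, Pik3r4 at -0.061, Atg16l1 at -0.047, Atg10 at 0.030 and Atg4d at -0.064. With 1 library left out the ranges were -0.0062 to 0.12 for Pik3r4, -0.0296 to 0.081 for Atg7, -0.15 to 0.18 for Atg9b, -0.017 to 0.049 for Atg13 and -0.00597 to 0.15 for Atg9a. TPM keep no read depth, so counting error is unknown, and short transcripts at low TPM may rest on few fragments.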
